A study of Mus musculus with 8 samples.

Results

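Acute phase and other secreted plasma proteins of the liver were followed in mice that lack miR-223 and in wild-type mice. The set was a list of 33 genes, and its members were the non-control probes of the authors' processed table that carry one of those gene names or an older synonym. This gave 27 probes of 24 genes, among 40554 non-control probes of 21205 named genes that the table shares with the scanner files. A further 9 probes, which carry 7 listed genes that no table probe names and a second probe of Saa4, were found in the scanner files alone. The 7 genes are Saa1, Orm1, Orm2, Hpx, Itih4, Trf and Ahsg. These 9 probes are left out of the counts of the 27 member probes, but the counts and medians by role include them. Serpina1a and Serpina1b were named on no probe.

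The samples were 4 miR-223KO and 4 WT livers of male mice, all on a C57BL/6J background and all on a high-fat diet for 3 months, so that the control livers carry the diet as well. The labels name the miR-223KO genotype without its allele, a promoter or a Cre driver, and give no age, so how the microRNA was removed and from which cells is not stated in the sources used here. Each liver RNA was labelled with Cy5 and hybridised with a pooled mouse RNA labelled with Cy3, in the same dye orientation on all 8 arrays. Values are therefore log2 ratios of a liver over that pool after loess normalisation within the array, and a difference of 1 on this scale is a doubling. Nothing in the labels says that each sample is a separate mouse. A liver in what follows therefore stands for a sample, and spread between livers for spread between samples. The p-values set the group difference only against the variation between samples of these arrays, which may in part be technical. The RNA comes from whole liver, in which fewer cells of a type and less RNA per cell cannot be told apart. No probe is named for the miR-223 gene, so the genotype labels were not checked through it.

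In the acute phase response, macrophages and other cells release IL-1, IL-6 and TNF, and hepatocytes answer through the transcription factors STAT3, NF-kB and C/EBP. Positive acute phase proteins such as the serum amyloid A proteins, orosomucoids, haptoglobin and lipocalin 2 are then made in larger amounts, and negative ones such as albumin, transthyretin and retinol-binding protein in smaller amounts. miR-223 is a microRNA of the myeloid lineage, abundant in neutrophils, and binds mRNAs mainly through its seed.

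The miR-223 strands are shown because their loss defines the mutant group. In RefSeq (build GRCm38.p6, plus strand) miR-223-3p lies at chrX:96242884-96242905 and miR-223-5p at chrX:96242842-96242864, and capitals mark the seed, bases 2 to 8.
mmu-miR-223-3p: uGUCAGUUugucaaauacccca
mmu-miR-223-5p: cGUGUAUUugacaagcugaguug

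The 250 bases upstream of a RefSeq transcription start are shown for the inducible genes whose values the results turn on (build GRCm38.p6). For Saa1 and Orm3 this window lies partly, and for Saa3 wholly, inside the outer RefSeq bounds of the gene. Capitals mark the match to the C/EBP pattern TTGCNNAA, searched on both strands, where N is any base.
Saa1, chr7:46742981-46743230, minus strand: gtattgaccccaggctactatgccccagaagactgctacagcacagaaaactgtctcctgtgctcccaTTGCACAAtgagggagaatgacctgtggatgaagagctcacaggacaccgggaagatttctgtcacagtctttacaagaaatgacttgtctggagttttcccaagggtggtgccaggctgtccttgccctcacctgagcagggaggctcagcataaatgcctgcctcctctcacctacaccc
Saa2, chr7:46751583-46751832, plus strand: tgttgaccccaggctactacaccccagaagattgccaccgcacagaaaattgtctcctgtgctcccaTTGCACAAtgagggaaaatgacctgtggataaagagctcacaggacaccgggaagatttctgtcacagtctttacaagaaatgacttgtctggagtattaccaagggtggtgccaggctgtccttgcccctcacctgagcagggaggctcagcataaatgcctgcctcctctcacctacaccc
Saa3, chr7:46715677-46715926, minus strand: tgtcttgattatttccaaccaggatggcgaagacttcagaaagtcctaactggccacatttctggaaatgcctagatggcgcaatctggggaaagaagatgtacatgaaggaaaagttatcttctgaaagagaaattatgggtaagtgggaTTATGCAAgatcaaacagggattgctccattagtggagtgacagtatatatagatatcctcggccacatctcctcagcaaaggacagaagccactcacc
Orm2, chr4:63362199-63362448, plus strand: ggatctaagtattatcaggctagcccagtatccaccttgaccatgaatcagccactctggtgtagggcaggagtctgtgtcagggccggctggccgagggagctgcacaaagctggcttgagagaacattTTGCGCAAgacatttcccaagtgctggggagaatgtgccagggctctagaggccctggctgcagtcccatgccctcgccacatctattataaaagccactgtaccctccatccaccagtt
Orm3, chr4:63355908-63356157, plus strand: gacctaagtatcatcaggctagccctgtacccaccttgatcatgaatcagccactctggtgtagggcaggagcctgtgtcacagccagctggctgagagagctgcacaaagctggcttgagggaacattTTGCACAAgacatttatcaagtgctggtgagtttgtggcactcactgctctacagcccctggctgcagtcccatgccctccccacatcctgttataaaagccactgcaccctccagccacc
Lcn2, chr2:32387740-32387989, minus strand: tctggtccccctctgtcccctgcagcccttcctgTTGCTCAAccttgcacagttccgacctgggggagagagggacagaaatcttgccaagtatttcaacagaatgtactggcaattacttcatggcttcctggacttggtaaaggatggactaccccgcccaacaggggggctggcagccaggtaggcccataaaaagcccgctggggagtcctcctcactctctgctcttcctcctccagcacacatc

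RefSeq promoters were found for 27 of the 33 listed genes. The C/EBP pattern stood in the window of 16 of these 27 genes (59.3%), against 10.8% of 27025 genes. A STAT pattern, TTCNNNGAA, was found for 4 of 27 (14.8%), namely Apcs, Steap4, Itih4 and Socs3, against 8.13% of all genes. The NF-kB pattern, GGGA followed by any 2 bases, T, any base and CC, was found for Rbp4 alone, 3.70% of the listed genes against 3.80% of all genes. In Saa1 and Saa2 the C/EBP match begins at positions -182 and -183 from the start, and their windows share 238 of 250 bases (95.2%). Those of Orm2 and Orm3 share 218 bases (87.2%), whereas those of Saa1 and Saa3 share 133 (53.2%). The patterns are matches of letters and not measured binding sites.

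On the arrays as a whole, 25665 probes were bright enough to test. Between 49.5% and 69.8% of spots were well above background in Cy5 and between 61.3% and 71.2% in Cy3, no spot was saturated, and the log2 ratios of any pair of arrays correlated at 0.27 to 0.56 over probes. Replicates 1 and 2 of both groups shared one slide and replicates 3 and 4 the other. All 36 probes of listed genes were well above background in both channels on all 8 arrays. Many of their spots carried the scanner software's flag for non-uniform pixels, namely 50 of 216 member spots (23.1%) and 56 of 72 spots of the 9 further probes (77.8%), against 2.00% to 5.67% of the spots of each array. Flagged spots were kept.

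No listed gene passed the test between miR-223KO and WT livers. Of 27 member probes, 12 were higher and 15 lower in miR-223KO, with a median log2 difference of -0.05 (-0.66 to 0.82), beside -0.003 over all probes tested, and the smallest adjusted p was 0.984 (limma, Benjamini-Hochberg over 25665 probes). Over all probes the test called 1 (0.0039%), Ctse, the aspartic protease cathepsin E, at 2.70 (SE 0.23, adjusted p = 9.66e-05), and called none lower (0%). At an unadjusted p under 0.05 stood 2 member probes (7.41%), Alb and Fetub, both lower, against 4.58% of all probes (2.22% lower and 2.35% higher). The 4 miR-223KO and 4 WT values overlapped for every member probe, while they did not for 2.77% of all probes (1.54% with miR-223KO above and 1.22% below). Among the 9 further probes 5 were higher and 4 lower, with a median of 0.14, and none had an unadjusted p under 0.05. The median standard error of the members was 0.23, beside 0.20 over all probes.

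**Figure D1:**
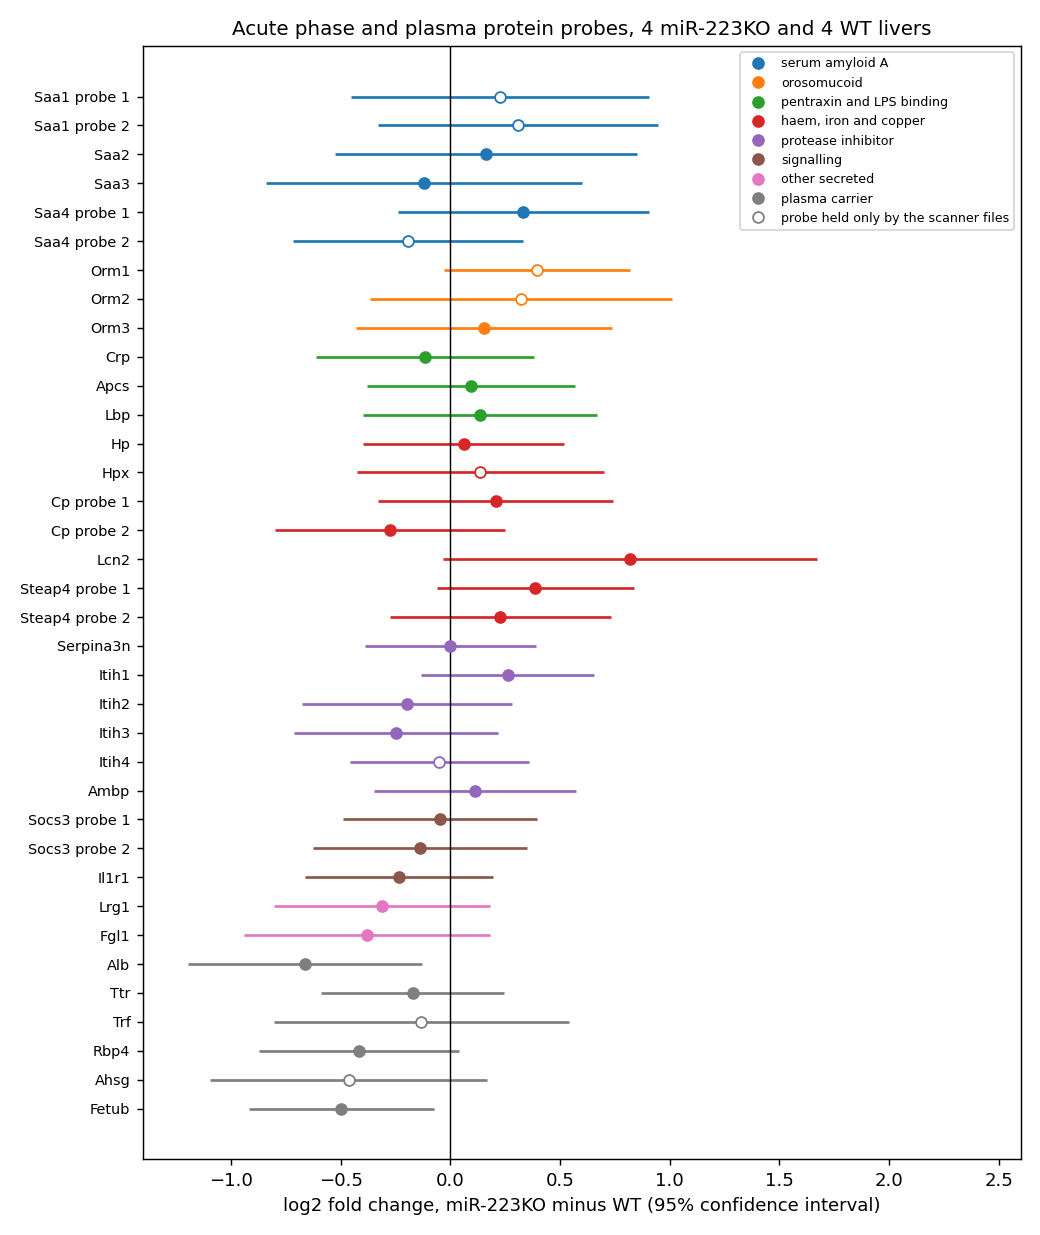
Log2 difference, miR-223KO minus WT, of each probe of a listed gene with its 95% confidence interval from limma, ordered by role, filled for the 27 probes of the processed table and open for the 9 probes of the scanner files alone. The intervals of Alb and Fetub lie below 0, Lcn2 has the highest estimate at 0.82, and no probe passes the adjusted test.

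Serum amyloid A proteins are small lipoprotein-bound proteins that in mice are induced many-fold in liver (Saa1, Saa2), are made largely outside hepatocytes (Saa3) or are made constantly (Saa4). Of their 6 probes, 4 were higher and 2 lower in miR-223KO, with a median log2 difference of 0.20, and none passed. The Saa2 log2 ratios were 0.37, -0.69, -0.61 and -0.08 in miR-223KO replicates 1 to 4, against -0.97, -0.20, 0.55 and -1.06 in WT replicates 1 to 4. WT livers thus held both the highest and the lowest values, and the difference was 0.16 (SE 0.32). Saa3 read 0.54, -0.64, -0.31 and -0.58 in miR-223KO, against -0.69, -0.03, 0.95 and -0.74 in WT, a difference of -0.12 (SE 0.34). Both genes were highest in WT replicate 3 and second highest in miR-223KO replicate 1.

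Saa1 had 2 probes, both on scanner files alone. The first, A_51_P361650, read 0.54, -0.07, 0.07 and 0.36 in miR-223KO, against -0.51, -0.07, 1.20 and -0.64 in WT, a difference of 0.23 (SE 0.32). The second, A_52_P318673, read 0.09, -0.42, -0.31 and 0.50 in miR-223KO, against -0.97, 0.01, 0.46 and -0.88 in WT, a difference of 0.31 (SE 0.30). On both probes WT replicates 1 and 4 were the lowest of all livers. Saa1 and Saa2 are near-identical copies, so a signal on either probe may come from both transcripts. Saa4 read 0.18, 0.80, 0.16 and -0.39 in miR-223KO, against -0.76, 0.45, -0.15 and -0.12 in WT on its table probe, a difference of 0.33 (SE 0.27). Its second probe, A_52_P404329, had flagged spots on all 8 arrays and differed the other way, at -0.19 (SE 0.25). The 2 probes of Saa4 thus disagreed in direction. The table probe's difference rests on single livers, at 0.13 without miR-223KO replicate 2, 0.13 without WT replicate 1 and 0.53 without either miR-223KO replicate 4 or WT replicate 2, and stood at 0.02 on the second slide and 0.60 with median centring.

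Orosomucoids are alpha-1-acid glycoproteins, abundant plasma proteins that bind basic drugs and are induced by glucocorticoids and IL-6. All 3 probes were higher in miR-223KO, at a median of 0.32, and none passed. Only Orm3 is a member. Orm1 and Orm2 were read from the scanner files alone, with flagged spots on 7 and 5 arrays. Orm1 read 0.65, 0.21, 0.37 and -0.03 in miR-223KO, against -0.23, -0.34, 0.21 and -0.01 in WT, a difference of 0.39 (SE 0.20, unadjusted p = 0.0656). Orm2 lay within 0.19, 0.0034, 0.21 and -0.04 in miR-223KO, against -0.69, -0.74, 1.10 and -0.60 in WT, a difference of 0.32 (SE 0.32). For Orm2, 3 WT livers were below every miR-223KO liver and WT replicate 3 was above them all. Orm3 read 0.27, 0.43, 0.48 and -0.09 in miR-223KO, against -0.40, -0.20, 1.09 and -0.02 in WT, a difference of 0.15 (SE 0.28). The 3 genes are close paralogues, and their probes may share targets.

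These 9 serum amyloid A and orosomucoid probes varied more between WT livers than between miR-223KO livers. Their median SD was 0.42 among miR-223KO and 0.69 among WT livers, while over all probes it was 0.26 and 0.27. The WT SD was the larger in 7 of the 9 probes, against 51.4% of all probes. It was the larger in 14 of the 27 member probes (51.9%), so the pattern was not one of the members as a whole. The 9 probes were picked after their values were seen. Of them only Saa2, Saa3, Orm3 and the table probe of Saa4 are members. The others came from the scanner files alone and were flagged on 5 to 8 arrays each. WT replicate 3 was the highest of 8 livers for 5 of the 9 probes, against 3072 of all 25665 probes. WT replicate 1 or 4 was the lowest for 6 of the 9, against 6704 of all 25665 probes. Orm2 is one of the probes of the scanner files alone, and its WT replicate 3 spot was flagged. It had an SD of 0.13 among miR-223KO livers and 0.89 among WT livers. The second of these exceeds 99.7% of all WT SDs and the first only 10.7% of all miR-223KO SDs. No test was made of this difference in spread, since the probes were chosen with results known and share livers and sequence.

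**Figure D2:**
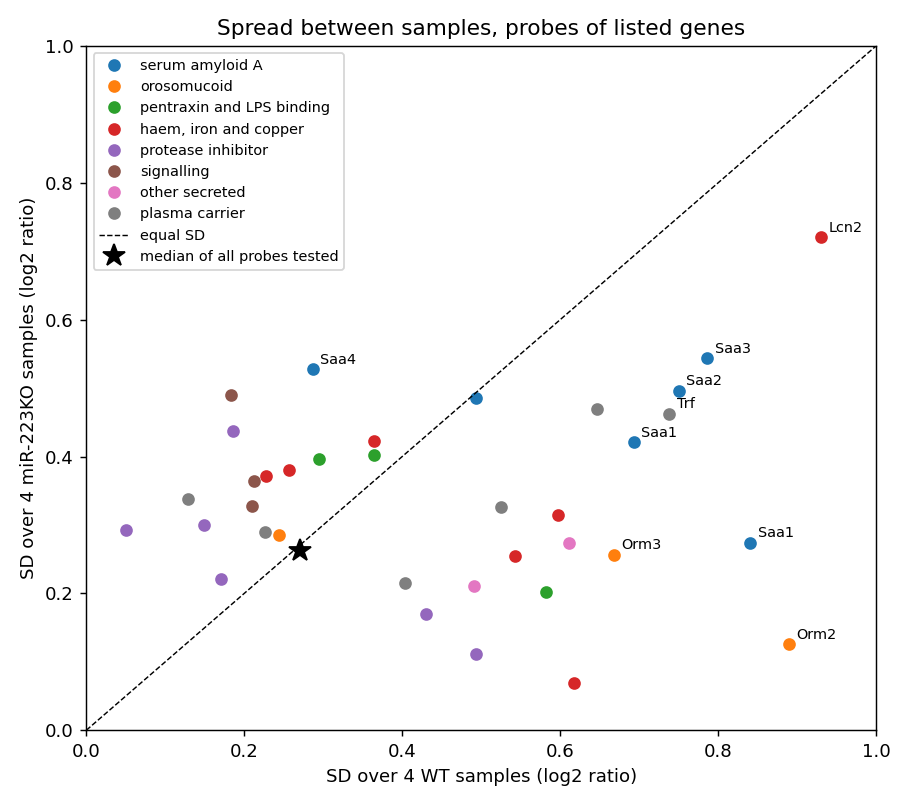
SD of the log2 ratio among the 4 miR-223KO livers (vertical) against that among the 4 WT livers (horizontal) for each of the 36 probes of listed genes, coloured by role, with a star at the median of all probes tested (0.26 against 0.27) and a dashed line of equal SDs. Orm2 lies at 0.13 against 0.89 and Lcn2 at 0.72 against 0.93, the points farthest to the right. Orm2 is a probe of the scanner files alone, and its WT replicate 3 spot was flagged.

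The share of this pattern that sits in one array depends on normalisation. With each array centred on its median in place of loess, WT replicate 3 was highest for 1 of the 9 probes, although still above the other WT livers for 5. The WT SD was the larger in 8 of 9, at a median of 0.44 among miR-223KO and 0.79 among WT livers, while over all probes this scaling gave 0.28 and 0.37. Another array then stood apart. WT replicate 4 was the lowest of all livers for Saa1 (-2.03 and -2.31), Saa2 (-2.42), Saa3 (-2.06), Orm1 (-1.48), Orm2 (-1.95) and Orm3 (-1.44). It was also the lowest for the table probe of Saa4 (-1.55), but not for the second (-0.91). With the scanner software's processed signals WT replicate 3 was highest for 7 of the 9. The cause of the difference between normalisations was not tested. All 9 probes were higher in miR-223KO on the first slide (0.31 to 0.81, 2 livers against 2), while on the second 3 were higher and 6 lower (-0.70 to 0.31). Without WT replicate 3 the log2 difference of Orm2 was 0.77, that of Saa1 on A_51_P361650 was 0.63 and those of Orm3, Saa2 and Saa3 were 0.48, 0.49 and 0.24. Saa3 thus changed sign without that liver. WT replicate 3 was singled out after its values were seen, so no p-value is given for these differences. None of them passed the adjusted test.

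**Figure D3:**
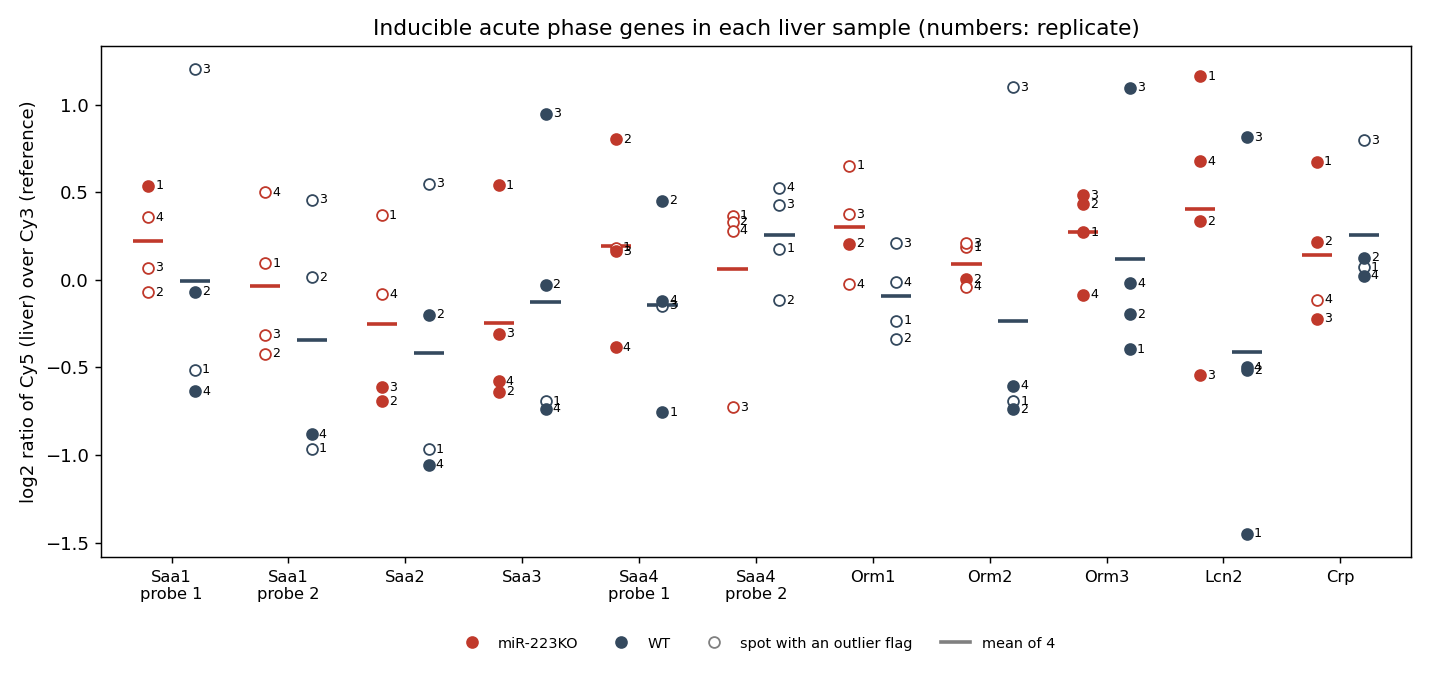
Log2 ratio of liver over reference in each miR-223KO and WT liver for the inducible acute phase genes, with numbers for replicates, open symbols for flagged spots and bars for group means. WT replicate 3 lies at the top for Orm2 (1.10) and Saa3 (0.95), and the groups overlap for every gene.

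Lcn2 encodes lipocalin 2, which binds bacterial siderophores and is made by hepatocytes and neutrophils in inflammation. It had the highest estimate of all members, with log2 ratios of 1.16, 0.33, -0.55 and 0.68 in miR-223KO, against -1.45, -0.52, 0.81 and -0.50 in WT. The difference was 0.82 (SE 0.40, 95% interval -0.03 to 1.67, a 1.77-fold higher mean), with an unadjusted p of 0.0584 and an adjusted p of 0.984 in limma. miR-223KO replicate 3 lay below 3 of the 4 WT livers and WT replicate 3 above 3 of the 4 miR-223KO livers. Its SDs, 0.72 among miR-223KO and 0.93 among WT livers, exceeded those of 98.6% and 99.8% of probes. The difference was 1.73 on the first slide and -0.09 on the second, 0.47 without WT replicate 1 and 1.23 without WT replicate 3. Rebuilt per channel, 0.55 of it lay in liver Cy5 and -0.27 in the Cy3 reference, which is the same RNA on all arrays. In the authors' deposited table Lcn2 stands at 1.06.

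The other binders of haem, iron and copper are mostly positive acute phase proteins. Of the 7 probes of this role, Lcn2 included, 6 were higher and 1 lower, at a median of 0.21. Hp, haptoglobin, which captures free haemoglobin, read 1.05, 0.95, 1.13 and 0.29 in miR-223KO, against 0.44, 0.83, 1.06 and 0.83 in WT, a difference of 0.06 (SE 0.22). Hpx, hemopexin, which captures free haem, differed by 0.14 (SE 0.27) with all 8 of its spots flagged. Steap4, a metalloreductase for iron and copper, was higher on both its probes, at 0.23 (A_52_P182919, SE 0.24) and 0.39 (A_51_P143893, SE 0.21, unadjusted p = 0.0844). On the brighter Steap4 probe, A_52_P182919, the difference was 0.88 on the first slide and -0.43 on the second, while on A_51_P143893 it was 0.44 and 0.34. The 2 probes of Cp, the ferroxidase ceruloplasmin, disagreed, at 0.21 (A_51_P493234, SE 0.25) and -0.27 (A_52_P597002, SE 0.25). On the first of them the 4 miR-223KO livers lay between 0.08 and 0.25, inside the WT range of -0.73 to 0.76.

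Pentraxins and lipopolysaccharide-binding protein recognise microbes and cell debris. Of their 3 probes 2 were higher and 1 lower. Crp, C-reactive protein, which is only weakly induced in mice, read 0.67, 0.22, -0.22 and -0.11 in miR-223KO, against 0.07, 0.12, 0.80 and 0.02 in WT, a difference of -0.12 (SE 0.23). Again WT replicate 3 was the highest and miR-223KO replicate 1 the second highest. Apcs, serum amyloid P and the main acute phase pentraxin of mice, differed by 0.09 (SE 0.22). Lbp, which hands lipopolysaccharide to CD14, differed by 0.13 (SE 0.25), and neither gene had its highest value in WT replicate 3.

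Protease inhibitors and their relatives showed differences on both sides of 0. Of 6 probes, 2 were higher and 4 lower in miR-223KO, at a median of -0.03. Serpina3n, an inhibitor of granzyme B and other serine proteases that is strongly induced in the mouse acute phase, had equal means of 0.34 in miR-223KO and 0.34 in WT (SD 0.22 and 0.17, n = 4 each, SE of the difference 0.18), and is counted among the lower ones by a trace. Itih1, a heavy chain of inter-alpha-trypsin inhibitor that stabilises hyaluronan, read -0.21, 0.37, 0.21 and 0.45 in miR-223KO, against -0.07, -0.02, -0.02 and -0.12 in WT, a difference of 0.26 (SE 0.19). Here 3 miR-223KO livers lay above all WT livers and 1 below them. The related heavy chain genes Itih2, Itih3 and Itih4 differed by -0.20, -0.25 and -0.05 (SE 0.23, 0.22 and 0.19). Itih4 was read only from the scanner files, with flagged spots on 5 arrays. Ambp, the precursor of the inhibitor's light chain bikunin, differed by 0.11 (SE 0.22).

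Signalling members were lower on all 3 probes, at a median of -0.14, and none passed. Il1r1, the receptor for IL-1, read -0.31, -0.26, 0.36 and 0.17 in miR-223KO, against 0.37, 0.39, -0.07 and 0.20 in WT, a difference of -0.23 (SE 0.20). The Il1r1 difference was -0.66 on the first slide and 0.20 on the second. Socs3, the STAT3-induced brake on IL-6 signalling, differed by -0.14 (A_52_P431770, SE 0.23) and -0.05 (A_51_P474459, SE 0.21). The secreted proteins Lrg1 and Fgl1 were lower as well. Lrg1, a leucine-rich glycoprotein induced by IL-6, differed by -0.31 (SE 0.23), with means of 0.21 in miR-223KO and 0.52 in WT (SD 0.21 and 0.49, n = 4 each). The Lrg1 difference was -0.15 without WT replicate 3, -0.53 without WT replicate 4, -0.15 with processed signals and -0.0098 with median centring. Fgl1, a hepatocyte-secreted fibrinogen-like protein, differed by -0.38 (SE 0.26), at 0.17 on the first slide and -0.93 on the second.

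The plasma carriers, negative acute phase proteins for the most part, were lower on all 6 probes, at a median log2 difference of -0.44, with none past the adjusted test. On the first slide 4 of the 6 were higher and 2 lower (median 0.05, 2 livers against 2), and on the second all 6 were lower (median -0.71). The listed genes as a whole moved likewise. Of their 36 probes 26 were higher on the first slide and 10 on the second, against 50.3% and 49.0% of all probes. Alb, albumin, the main protein of plasma, read 1.45, 1.76, 2.10 and 1.39 in miR-223KO, against 1.80, 2.28, 2.22 and 3.06 in WT. The groups overlapped by the order of WT replicate 1, which lay below miR-223KO replicate 3. The difference was -0.66 (SE 0.25, 95% interval -1.20 to -0.13, a 1.58-fold lower mean), with an unadjusted p of 0.0186 and an adjusted p of 0.984 in limma. Without WT replicate 4 it was -0.42. Fetub, fetuin-B, an inhibitor of the metalloprotease ovastacin, read 0.11, 0.34, -0.35 and 0.06 in miR-223KO, against 0.82, 0.56, 0.49 and 0.27 in WT. WT replicate 4 alone overlapped the miR-223KO livers, below miR-223KO replicate 2. The Fetub difference was -0.50 (SE 0.20, 95% interval -0.92 to -0.08, unadjusted p = 0.0238, adjusted p = 0.984 in limma) and was close on the slides, at -0.46 and -0.53.

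Rbp4, which carries retinol from the liver, read 1.32, 1.67, 1.16 and 1.34 in miR-223KO, against 1.40, 1.57, 1.88 and 2.32 in WT, a difference of -0.42 (SE 0.22, unadjusted p = 0.072). It stood at 0.02 on the first slide, -0.85 on the second and -0.24 without WT replicate 4. Ahsg, fetuin-A, which keeps calcium phosphate in solution, read 0.51, 1.43, 0.87 and 0.38 in miR-223KO, against 0.82, 0.81, 1.22 and 2.19 in WT, a difference of -0.46 (SE 0.30). Trf, the iron carrier transferrin, differed by -0.13 (SE 0.32) and Ttr, transthyretin, the carrier of thyroxine and of Rbp4, by -0.17 (SE 0.20). Ahsg and Trf were read only from the scanner files, with flagged spots on 6 and 5 arrays. WT replicate 4 was the highest of 8 livers for 4 of the 6 carrier probes, Alb, Trf, Rbp4 and Ahsg, against 13.7% of all probes.

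**Figure D4:**
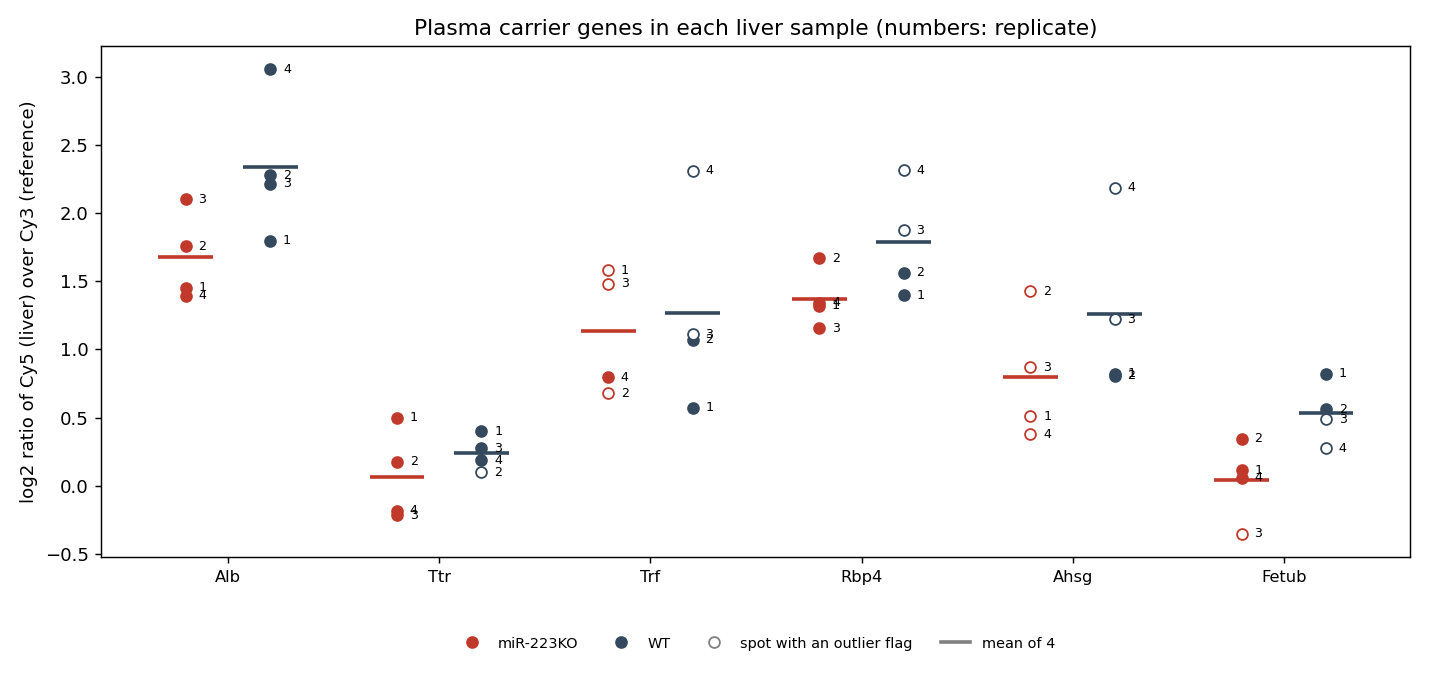
Log2 ratio of liver over reference in each miR-223KO and WT liver for the plasma carrier genes, with numbers for replicates, open symbols for flagged spots and bars for group means. WT replicate 4 is at the top for Alb (3.06), Trf (2.31), Rbp4 (2.32) and Ahsg (2.19), and the miR-223KO mean is below the WT mean for all 6 genes.

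The carriers are among the brightest spots of the arrays, and the direction of some changed with how bright spots were normalised. Alb had raw Cy5 signals of 250857, 115464, 181713 and 246747 in miR-223KO, against 238475, 184340, 137566 and 125607 in WT. Its raw Cy3 signals were 112350, 69313, 96569 and 119275 in miR-223KO, against 51210, 67275.5, 154415 and 115705 in WT. The raw log2 ratio of Alb was thus -0.17 and 0.12 in WT replicates 3 and 4, where loess gave 2.22 and 3.06. Over the 1083 probes with a mean log2 signal above 12, the median raw log2 ratio was -1.51 to -0.54 in miR-223KO arrays and -2.45 to -0.22 in WT arrays, lowest in WT replicates 3 and 4. With median centring the differences became -0.18 for Alb, -0.24 for Fetub and 0.01 for Rbp4, and 3 of the 6 carriers were higher. The same scaling put 29 of the 36 listed probes and 64.3% of all probes higher in miR-223KO, against 17 of 36 and 49.4% after loess. Of the loess difference of Alb, -0.27 lay in liver Cy5 and 0.39 in the Cy3 reference.

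No regulator upstream of the response passed the test. Of 36 regulators of IL-1, IL-6 and TNF signalling and of acute phase transcription, 34 were measured by 62 tested probes, 32 higher and 30 lower, at a median of 0.005. None passed, and 3 probes (4.84%) had an unadjusted p under 0.05, near the 4.58% of all probes. These 3 were lower: Lifr, the receptor for leukaemia inhibitory factor, at -0.47, Nr3c1, the glucocorticoid receptor, at -0.39, and Pias3, an inhibitor of STAT3, at -0.39. Other probes of these 3 genes lay closer to 0, with Nr3c1 at -0.33 on A_52_P63106, Lifr at 0.20 on A_52_P438170 and Pias3 at 0.0039 on A_51_P152167. Cebpb and Cebpd, the C/EBP factors of the acute phase, stood at 0.14 and 0.23, and Stat3 at -0.14 and -0.07 on its probes. Il6 and Il1r2 were too dim to test.

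Other positive acute phase genes lay more often lower than higher. Of 29 tested probes of 25 genes, 12 were higher and 17 lower, at a median of -0.14, and none passed. Fga, the fibrinogen alpha chain, was lower, at -0.89 (SE 0.20, adjusted p = 0.531 in limma), with all 4 miR-223KO values below all 4 WT values, as for 1.22% of all probes. Its partner chains Fgb and Fgg differed by -0.25 and -0.34. Serpina1c, an alpha-1-antitrypsin gene and close paralogue of the listed Serpina1a and Serpina1b, stood at -0.80 (SE 0.25). Other negative acute phase and carrier genes had 11 probes higher and 17 lower of 28, at a median of -0.06. Apoa4, an apolipoprotein of chylomicrons, was higher at 0.56 (SE 0.26, adjusted p = 0.984 in limma), and Gc, the vitamin D-binding protein, stood at -0.54 (SE 0.26).

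Markers of other liver cells were read in the same livers. Of 17 macrophage and Kupffer cell probes 15 were higher in miR-223KO, at a median of 0.37. An unadjusted p under 0.05 was found for 4 (23.5%), against 4.58% of all probes, and none passed the adjusted test. Trem2, a receptor of lipid-associated macrophages, stood at 0.57, Csf1r, the receptor that macrophages need for survival, at 0.54, and Clec4f, a defining Kupffer cell lectin, at 0.23. Their mean log2 ratio relative to all probes was -0.14 to 0.48 in miR-223KO, highest in replicate 1, and -0.47 to 0.31 in WT, highest in replicate 3. These 2 livers were also the highest for Saa2, Saa3 and Crp. miR-223KO replicate 3, at 0.29 for the macrophage markers, read -0.61 for Saa2, -0.31 for Saa3 and -0.22 for Crp, the lowest Crp value of the 8 livers. The same liver read -0.55 for Lcn2, while it was the second highest of the 8 livers for Orm1 (0.37), Orm2 (0.21) and Orm3 (0.48). The part of macrophage content in those values was not tested. Of 12 neutrophil probes 6 were higher and 6 lower, at a median of -0.005 (-0.21 to 0.61). S100a9 was the highest of them, and Elane and S100a8 were too dim to test. Hepatocyte markers were present in all livers, with 6 of 21 probes higher and 15 lower and a mean level relative to all probes of 0.08 to 0.49 in miR-223KO and 0.17 to 0.48 in WT. Of the other markers, 3 of 10 adipocyte, 12 of 18 stellate cell, 10 of 14 endothelial, 1 of 12 cholangiocyte and 4 of 9 lymphocyte probes were higher, and none passed.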

How the data were processed

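Whole-liver RNA was hybridised on 8 Agilent 2-colour arrays (design 014868, grid build mm9) and read by Agilent Feature Extraction 12.0.3.1 with its protocol GE2_1200_Jun14, per the file headers. As intensity the deposited files give median spot signals, local backgrounds and processed signals. The authors' table holds log2 ratios of processed signals and a log2 fold change. That table lacks 620 of the 41174 probes in the scanner files, and each of these was flagged on at least 5 arrays.

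Here median signals were background-corrected by normexp (offset 50) and normalised by loess within arrays in limma 3.58.1 under R 4.3.3, with controls and flagged spots at weight 0 in the curve, and spots were averaged by probe. Probes well above background in Cy5 on at least 4 arrays entered lmFit and eBayes (two-sided, Benjamini-Hochberg, threshold 0.05). Intervals are for the difference of the group means, with 4 samples in each group. Cy5 and Cy3 parts came from Aquantile normalisation. Probes were named through RefSeq accessions or the authors' table, with 5810 left unnamed. Promoters and microRNAs came from RefSeq.

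Members and lists were chosen with earlier results of these data known. Beside members past the test, the text singles out up to 6 genes higher and 6 lower with the smallest p (Lcn2, Itih1, Saa4, Steap4, Cp, Orm3; Alb, Fetub, Rbp4, Fgl1, Lrg1, Il1r1), each by its brightest table probe. The other members are given by role. The 9 probes of the scanner files alone were added after seeing the data. Alternatives were other background and normalisation settings, the authors' table, filters, slides, a replicate block and leaving out each replicate.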

Additional observations from a re-analysis of the deposited data

Results flagged for a closer look

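Over the 36 probes of listed genes, 3 of 72 groups of 4 livers held 1 value far from the other 3 by Dixon's gap criterion. Chance gives about 1 in 20 such groups. Orm2 stood at 1.10 in WT replicate 3, while the other WT livers lay between -0.74 and -0.60. Crp stood at 0.80 in the same liver, with the others between 0.02 and 0.12. The second Saa4 probe, A_52_P404329, stood at -0.73 in miR-223KO replicate 3, with the others between 0.28 and 0.37. All 3 spots carried the flag for non-uniform pixels.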

How the results depend on the processing

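No probe of a listed gene passed the test under any of 23 alternatives, and the lowest adjusted p was 0.307 (Lcn2 at 1.73 on the first slide alone, limma). The median log2 difference of the 27 member probes, -0.05, became 0.18 with median centring, 0.13 on the first slide and -0.24 on the second. Median centring put the median of all probes at 0.08, against -0.003 after loess. Over all probes, the 1 higher call became 3 with a normexp offset of 16 and 0 on the second slide, and was 1 to 2 when each replicate was left out. The 0 lower calls, with 571 at an unadjusted p under 0.05, became 1 with flagged spots left out, 2 with an offset of 16, 1 with no background correction, 3 among probes well above background on all 8 arrays and 3 with slide as a block, and were 0 to 4 when each replicate was left out, 4 of them without WT replicate 3.

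Of 269 repeats for the 12 singled-out genes, 259 kept the direction and 10 turned it. Many of these repeats could not turn it. Aquantile normalisation, the filters on brightness, the choice of the brightest probe and the slide and replicate blocks leave each difference unchanged. The authors' table repeats the processed signals, and each run without a replicate shares most samples with the main fit. The count is therefore no measure of how stable the directions are. Rbp4 was 0.0115 with median centring and 0.0150 on the first slide, where Fgl1 was 0.17. On the second slide Lcn2 was -0.0907, Steap4 -0.43, Cp -0.26, Orm3 -0.34 and Il1r1 0.20. With each replicate left out, Cp ranged from -0.0260 to 0.47 and Orm3 from -0.0184 to 0.48, both lowest without WT replicate 1. Over all alternatives 21 of 27 member probes and 7 of the 9 further probes changed sign at least once. The cause of these changes was not tested.

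Samples with the same replicate number shared a slide, but the labels do not pair them. Their deviations from the group means correlated at -0.02 to 0.06. With the replicate block, no member probe passed, 3 probes of the array were called lower and 1 higher. The differences themselves, and so the members' median of -0.05, cannot move under this balanced block, which changes only their errors. Leaving out flagged spots left 14 of the 27 member probes to test, so flagged spots and 4 samples a group limit what these arrays can resolve.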
